A study of Macaca fascicularis with 2 samples.

Results

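Retinoic acid is made from vitamin A in a short chain of reactions, and 7 genes of that chain were followed across all cells of the fetal ovary of Macaca fascicularis, the cynomolgus monkey. The 7 genes were RDH10, ALDH1A1, ALDH1A2, DHRS3, CYP26A1, CYP26B1 and STRA6. They were chosen by symbol, and all 7 of 7 were found among the 18446 genes of the deposited table. The tissue came from 2 female fetuses, 1 at embryonic day 84 and 1 at embryonic day 116, and both ovaries of a fetus were dissociated together by enzymes and mechanical mincing. No treatment or genetic change is named for either animal. Single cells were profiled with 3′ end counting of unique molecular identifiers (UMIs), where each UMI stands for 1 captured transcript. The question was which somatic or germ cell groups carried the transcripts for making, binding and degrading retinoic acid.

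Retinol is delivered to cells by the carrier RBP4 and taken up through its membrane receptor STRA6. RDH10 oxidises retinol to retinaldehyde, DHRS3 reduces retinaldehyde back to retinol, and the aldehyde dehydrogenases ALDH1A1 and ALDH1A2 turn retinaldehyde into retinoic acid, a step that is not reversed. The cytochromes CYP26A1 and CYP26B1 hydroxylate retinoic acid and so start its removal. In the fetal gonad retinoic acid is best known for its link with STRA8 and the entry of female germ cells into meiosis, and CYP26B1 for its activity in the fetal testis. Inside cells, retinoic acid is held by the binding proteins CRABP1 and CRABP2 and acts through the nuclear receptors RARA, RARB and RARG with their RXR partners.

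The table held 20967 cells and 148824177 UMIs. The median cell had 3756 UMIs from 1569 genes. Barcodes ended in 1 for 10621 cells and in 2 for 10346 cells, with medians of 3130 and 4555.5 UMIs, and 27 barcode sequences occurred with both endings. Nothing in the table ties an ending to a fetus, so all cells were treated as 1 pooled sample, the endings were used only as unlabelled sets, and nothing is said of a change with embryonic day. With no replicate, no test was possible. A level is given as UMIs of the gene per 1000000 UMIs of the group (CPM) with an exact 95% Poisson interval, and a share of cells with an exact 95% binomial interval. PCR copies are collapsed by the UMI, but neither interval covers more than counting error. Levels were compared between cell groups for the same gene, never between genes.

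Cells fell into 20 clusters, which were computed without the 7 genes and without 35 other retinoid genes, and were named from marker genes. They gave 6374 germ cell-like, 6266 granulosa-like, 4571 stroma-like, 1277 ovarian surface epithelium-like, 742 erythroid-like, 547 endothelial-like, 246 macrophage-like and 142 pericyte-like cells. The macrophage-like cluster also held lymphocyte transcripts, with a summed level of 1042 CPM over that marker list. A further cluster of 802 cells, all with barcodes ending in 2, was led by CBLN2 and LYPD1 and was left unnamed, since its granulosa and pericyte markers were equal in number. The study finds the peak of CBLN2 and LYPD1 in a cluster that it calls granulosa, and reports RDH10 there too. Erythroid-like cells served as a gauge of free RNA, on the untested assumption that they do not express the 7 genes. In them the 7 genes lay between 0.265 and 5.30 CPM. Their median cell had 4072 UMIs, and erythroid markers summed to 469894 CPM. Stroma markers summed to 572 CPM in them and to 2867 CPM in a shallow germ cell-like sub-cluster with a median of 720 UMIs. Whether the gauge holds for groups of other depth was not tested.

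**Figure D1:**
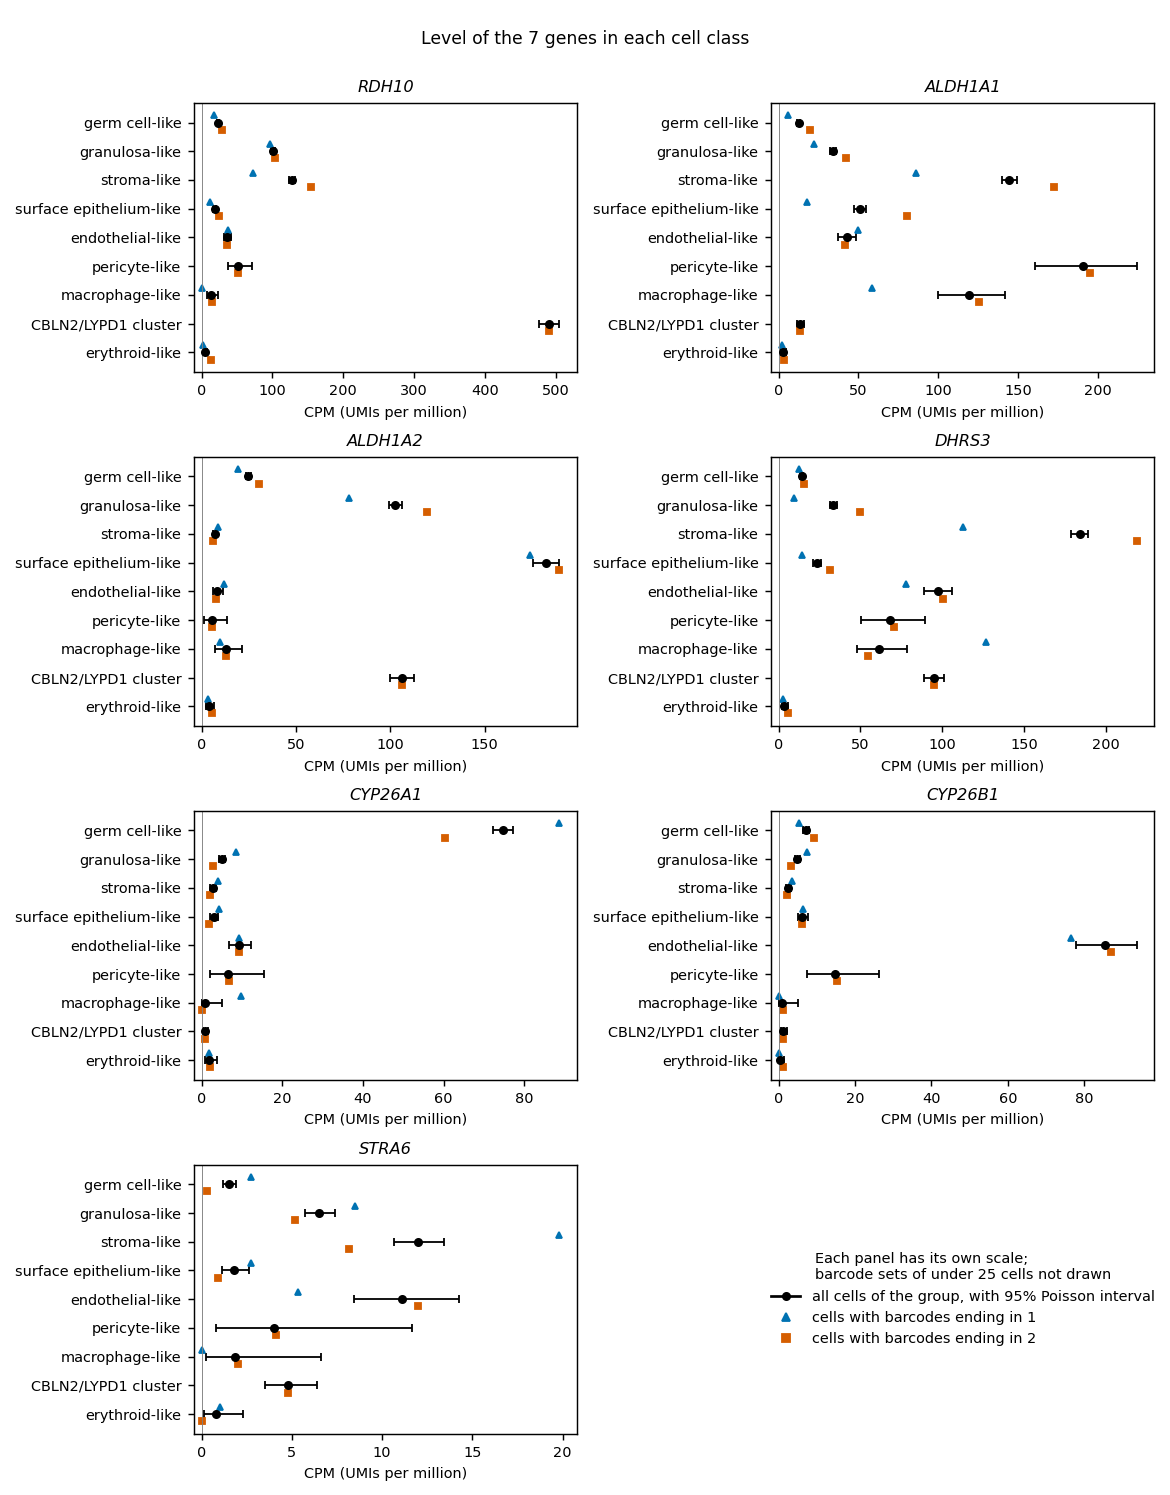
Level of each of the 7 genes (x axis, CPM, a separate scale per gene) in 8 cell classes and the unnamed CBLN2/LYPD1 cluster (y axis). Black points with bars are all cells of a class with the 95% Poisson interval, and triangles and squares are the barcode sets ending in 1 and in 2. RDH10 stood highest in the CBLN2/LYPD1 cluster at 491 CPM, CYP26A1 in germ cell-like cells at 74.7 CPM and CYP26B1 in endothelial-like cells at 85.5 CPM.

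The first oxidation, from retinol to retinaldehyde, was represented most in 3 groups outside the germ line. RDH10 stood at 491 CPM (95% interval 477 to 505, 4709 UMIs) in the CBLN2/LYPD1 cluster, at 128 CPM (123 to 132) in stroma-like cells and at 101 CPM (97.5 to 104) in granulosa-like cells. Pericyte-like cells held 51.9 CPM, endothelial-like cells 36.4, germ cell-like cells 23.5, surface epithelium-like cells 18.6 and macrophage-like cells 13.8, against 5.30 in erythroid-like cells. Of the 1201 RDH10 UMIs of germ cell-like cells, 585 lay in cells that stayed unnamed when germ cell-like cells were clustered again. The CBLN2/LYPD1 cluster made up 6.45% of all UMIs and 34.9% of those of RDH10.

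RDH10 was also widespread within that cluster. After each cell was thinned to 1000 UMIs, 35.2% of its 802 cells (31.9 to 38.6) held an RDH10 transcript, compared with 9.90% of stroma-like cells, 8.72% of granulosa-like cells and 0.461% of erythroid-like cells. Unthinned, these 4 groups had median depths of 7896.5, 3742, 3778 and 4072 UMIs and shares of 90.6%, 31.3%, 28.7% and 2.16%. The order of stroma-like and granulosa-like cells for RDH10 depended on the barcode set and on the naming of the CBLN2/LYPD1 cluster. Among barcodes ending in 1, stroma-like cells held 72.5 CPM and granulosa-like cells 96.2, and among those ending in 2 they held 155 and 104. With the CBLN2/LYPD1 cluster counted as granulosa, granulosa cells held 179 CPM against 128 in stroma-like cells. No order of the 2 classes is therefore given.

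ALDH1A1 and ALDH1A2, which catalyse the same oxidation of retinaldehyde, were highest in different cell classes. Whether single cells held both was not tested. ALDH1A1 was high in the mesenchyme and in macrophage-like cells. Its level was 190.4 CPM (160 to 224) in pericyte-like cells on 143 UMIs, 144 CPM (139.8 to 149) in stroma-like cells on 3628 UMIs, and 119 CPM (99.8 to 142) in macrophage-like cells on 130 UMIs. The intervals of the pericyte-like and macrophage-like cells do not overlap, whereas those of stroma-like and macrophage-like cells overlap. The place of pericyte-like cells above stroma-like cells rested on 1 barcode set, since 131 of the 142 pericyte-like cells had barcodes ending in 2. Among barcodes ending in 1, stroma-like cells held 86.3 CPM and the 11 pericyte-like cells 71.1 CPM on 2 UMIs. Surface epithelium-like cells held 50.9 CPM, endothelial-like cells 42.7, granulosa-like cells 34.2, the CBLN2/LYPD1 cluster 13.4, germ cell-like cells 12.6 and erythroid-like cells 2.38. Stroma-like cells alone held 52.4% of all ALDH1A1 UMIs with 16.9% of the UMIs of the table. Of thinned stroma-like cells 11.995% (11.04 to 13.0) held an ALDH1A1 transcript, and 0.307% of erythroid-like cells did.

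Barcode sets differed for ALDH1A1 in most classes. Stroma-like cells stood at 173 CPM with barcodes ending in 2, and surface epithelium-like cells at 17.8 CPM with barcodes ending in 1 and 80.3 CPM with barcodes ending in 2. Granulosa-like cells stood at 22.0 and 42.4 CPM, so stroma-like cells were the higher of the pair in each set. Among the 3 stroma-like clusters, the one led by C7 and SPON2 held 179 CPM, a level inside the interval of pericyte-like cells, the small proliferating one 109 and the one led by POSTN and LUM 87.6. The first of these came almost wholly from barcodes ending in 2, with 9 of its 2467 cells from the other set, and the last almost wholly from barcodes ending in 1. Barcode set and stroma-like cluster therefore cannot be told apart.

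ALDH1A2 was high in the surface epithelium-like and granulosa-like classes and in the unnamed CBLN2/LYPD1 cluster. Surface epithelium-like cells held 182 CPM (175 to 189.6, 2564 UMIs), the CBLN2/LYPD1 cluster 106 CPM (99.6 to 113) and granulosa-like cells 103 CPM (99.5 to 106). The last pair do not differ beyond their counting error. Germ cell-like cells followed at 24.8 CPM, macrophage-like cells at 12.9, endothelial-like cells at 8.31, stroma-like cells at 7.01, pericyte-like cells at 5.33 and erythroid-like cells at 3.97. Stroma-like and endothelial-like cells, whose intervals overlap, thus stood close to the free RNA gauge for ALDH1A2. Of the 1268 ALDH1A2 UMIs of germ cell-like cells, 709 lay in cells that stayed unnamed when germ cell-like cells were clustered again. The level in surface epithelium-like cells was similar in the barcode sets, at 174 and 189.6 CPM, and 13.4% of thinned cells (11.6 to 15.5) held a transcript, against 0.461% of erythroid-like cells.

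Granulosa-like clusters were uneven for ALDH1A2. A cluster of 1010 cells, 1009 of them with barcodes ending in 2, led by MNDA and RGS4 stood at 176 CPM (169 to 183), a level whose interval overlaps that of the surface epithelium-like cells. The largest cluster, of 2142 cells led by SOST, EGR4 and CRYM and with 2112 of them from barcodes ending in 1, held 76.7 CPM, and a shallow cluster of 821 cells held 73.7 CPM. The 603 cells led by PCP4, INHA and AMH, genes of maturing granulosa cells, held 42.4 CPM. Another 1690 cells, led by mitochondrial genes, held 42.0 CPM, and the mitochondrial share of UMIs in their median cell was 49.7%. By barcode ending, all granulosa-like cells held 78.1 and 119.5 CPM, so barcode set and granulosa-like cluster cannot be told apart. The same granulosa-like cluster at 176 CPM was also the highest of its class for RDH10 at 119 CPM, for ALDH1A1 at 51.8 CPM and for DHRS3 at 67.5 CPM.

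**Figure D2:**
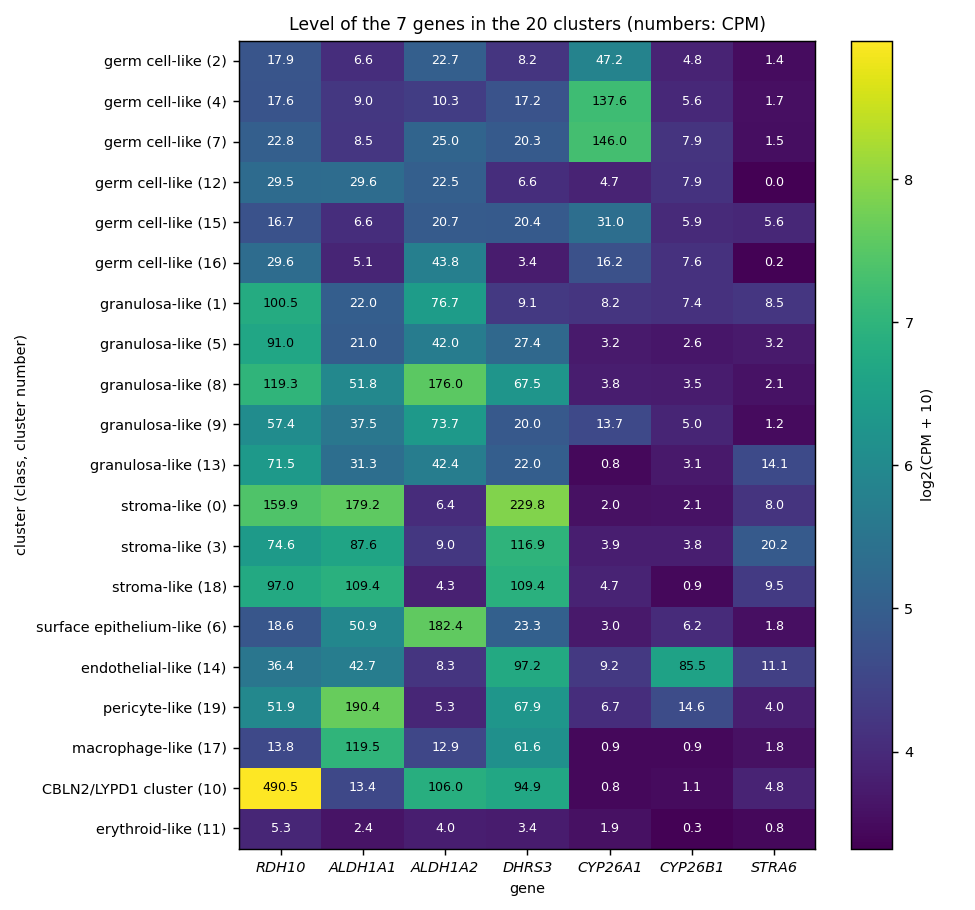
Level of the 7 genes (columns) in the 20 clusters (rows, with class and cluster number). Numbers in the cells are CPM and the colour is log2(CPM + 10). ALDH1A2 stood at 182 CPM in the surface epithelium-like cluster and 176 CPM in granulosa-like cluster 8, and ALDH1A1 and DHRS3 stood highest in pericyte-like cluster 19 at 190.4 CPM and stroma-like cluster 0 at 230 CPM. Stroma-like cluster 0 held 179 CPM of ALDH1A1, inside the interval of the pericyte-like cluster.

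DHRS3, the reductase that returns retinaldehyde to retinol and whose transcription retinoic acid is known to raise, was highest in stroma-like cells, a class that was also high for ALDH1A1. Its level was 184 CPM (179 to 189) in stroma-like cells on 4623 UMIs, 97.2 CPM (89.1 to 106) in endothelial-like cells and 94.9 CPM (88.8 to 101) in the CBLN2/LYPD1 cluster, and the last pair do not differ beyond their counting error. Pericyte-like cells held 67.9 CPM, macrophage-like cells 61.6, granulosa-like cells 33.5, surface epithelium-like cells 23.3, germ cell-like cells 14.0 and erythroid-like cells 3.44. Thinned stroma-like cells held a DHRS3 transcript in 14.6% of cases (13.6 to 15.7) and erythroid-like cells in 0.307%. By barcode ending, stroma-like cells held 113 and 219 CPM and granulosa-like cells 9.37 and 49.9 CPM. Over the 20 clusters the profiles of DHRS3 and ALDH1A1 had a Pearson correlation of log2(CPM + 10) of 0.76, those of DHRS3 and RDH10 of 0.59, and those of ALDH1A1 and ALDH1A2 of -0.21. These are descriptions over 20 clusters that share libraries and cells of like kind.

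Breakdown genes were split between germ cells and vessels. CYP26A1 stood at 74.7 CPM (72.3 to 77.1, 3811 UMIs) in germ cell-like cells, and 91.0% of its UMIs lay there, against 34.3% of the UMIs of all genes. The barcode sets gave 88.7 and 60.2 CPM. Every other class was below 10 CPM. Endothelial-like cells held 9.24 CPM, pericyte-like cells 6.66 on 5 UMIs, granulosa-like cells 5.13, surface epithelium-like cells 2.99, stroma-like cells 2.83, macrophage-like cells 0.919 on 1 UMI and the CBLN2/LYPD1 cluster 0.833, compared with 1.85 in erythroid-like cells.

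Germ cell transcripts were also counted in the somatic classes. The 11 germ cell markers in the table summed to 1803 CPM in germ cell-like cells and to 158 CPM in macrophage-like, 149 in granulosa-like, 145 in pericyte-like, 84.98 in stroma-like, 67.6 in surface epithelium-like, 58.2 in endothelial-like and 79.97 in erythroid-like cells, and to 44.6 CPM in the CBLN2/LYPD1 cluster. TDRD9 was at 0 in macrophage-like cells, and no other marker was at 0 in any of these groups. The part of germ cell RNA in the low somatic CYP26A1 levels was not tested.

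CYP26B1 was the endothelial breakdown gene. Endothelial-like cells held 85.5 CPM (77.9 to 93.7, 463 UMIs), with 76.5 and 87.0 CPM in the barcode sets. Pericyte-like cells followed at 14.6 CPM (7.31 to 26.2) on 11 UMIs. The remaining groups lay lower, with 7.15 CPM in germ cell-like cells, 6.19 in surface epithelium-like cells, 4.87 in granulosa-like cells, 2.55 in stroma-like cells, 1.15 in the CBLN2/LYPD1 cluster, 0.919 in macrophage-like cells and 0.265 in erythroid-like cells. With 3.64% of all UMIs, endothelial-like cells held 39.0% of those of CYP26B1. A transcript was found in 8.91% of thinned endothelial-like cells (6.55 to 11.8) and in 0.154% of erythroid-like cells, and in 32.2% and 0.135% without thinning.

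STRA6, the receptor for retinol uptake, was low everywhere. Stroma-like cells held 11.99 CPM (10.7 to 13.4, 301 UMIs), endothelial-like cells 11.1 CPM (8.46 to 14.3, 60 UMIs) and granulosa-like cells 6.53 CPM (5.74 to 7.39, 248 UMIs), and the first pair do not differ beyond their counting error. The other groups lay between 0.794 CPM in erythroid-like cells and 4.79 CPM in the CBLN2/LYPD1 cluster. Within their classes, the stroma-like cluster led by POSTN and LUM stood at 20.2 CPM and the granulosa-like cluster led by PCP4, INHA and AMH at 14.1 CPM. Stroma-like cells held 19.8 CPM with barcodes ending in 1 and 8.17 CPM with barcodes ending in 2, the opposite order to that of ALDH1A1 and DHRS3. A STRA6 transcript was found in 1.31% of thinned stroma-like cells (0.997 to 1.70) and 0.154% of erythroid-like cells (0.00389 to 0.853).

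**Figure D3:**
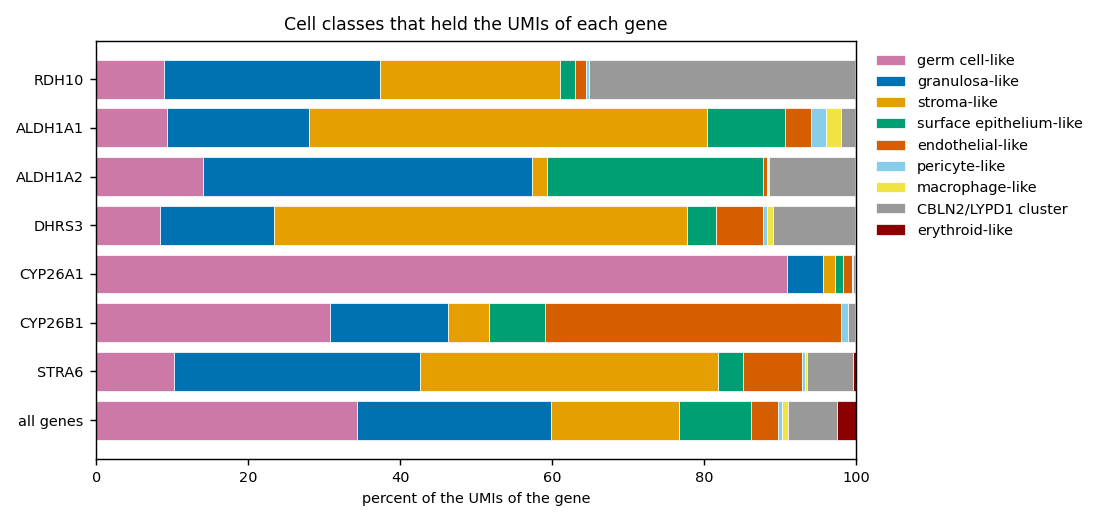
Share of the UMIs of each gene (x axis, percent) that lay in each cell class (colours), with the same for all genes in the bottom bar. Germ cell-like cells held 91.0% of CYP26A1 UMIs, endothelial-like cells 39.0% of those of CYP26B1, stroma-like cells 52.4% and 54.4% of those of ALDH1A1 and DHRS3, and the CBLN2/LYPD1 cluster 34.9% of those of RDH10.

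Germ cell-like cells were then set against the somatic classes pooled, which held 13049 cells. The pool left out erythroid-like cells and the unnamed CBLN2/LYPD1 cluster, which held 34.9% of all RDH10 UMIs. A gene was called where the ratio of CPM, with 10 CPM added to each side, was past 2-fold, among genes with at least 10 CPM on either side. CYP26A1 was the 1 member called higher in germ cell-like cells, at 74.7 against 4.31 CPM and a log2 ratio of 2.56. Of 9683 genes, 14.4% were called in that direction. The 4 called lower were ALDH1A1 (12.6 against 72.8 CPM, log2 ratio -1.87), ALDH1A2 (24.8 against 79.4, -1.36), RDH10 (23.5 against 89.4, -1.57) and DHRS3 (14.0 against 81.3, -1.93), while 11.7% of all genes were called lower. CYP26B1 and STRA6 were under 10 CPM on both sides and were not assessed. The median log2 ratio was -1.57 over the 5 members assessed and 0.10 over all genes assessed. All 5 calls had the same direction in each barcode set, with CYP26A1 at log2 ratios of 2.58 and 2.43.

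Between granulosa-like and stroma-like cells, the members divided. ALDH1A2 was called higher in granulosa-like cells, at 103 against 7.01 CPM and a log2 ratio of 2.73, as were 5.70% of 8945 genes. ALDH1A1 and DHRS3 were called lower, with log2 ratios of -1.81 and -2.16, as were 5.29% of all genes. RDH10, at -0.32, and STRA6, at -0.41, were not called, and CYP26A1 and CYP26B1 were under 10 CPM in both classes. In the barcode sets ALDH1A2 gave 2.21 and 3.01, ALDH1A1 -1.59 and -1.80, and DHRS3 -2.66 and -1.94. The median over the 5 members assessed was -0.41, beside 0.05 over all genes assessed.

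Germ cell-like cells were clustered again to follow the genes along oogenesis. The 4 named groups were 287 mitotic-like cells (with NANOG and TFAP2C among their markers), 1479 premeiotic-like cells, the stage the study calls retinoic acid-responsive, 2456 meiotic-like cells and 668 oogenesis-like cells with oocyte genes such as ZP2 and GDF9. The premeiotic-like group was named with STRA8 and REC8 among its markers, so those 2 genes are not reported as results there. A remaining 1484 cells were left unnamed. They held a shallow sub-cluster and a sub-cluster of 464 cells with a median of 21673.5 UMIs that was led by granulosa genes. Almost all mitotic-like cells, 282 of 287, had barcodes ending in 1, and 648 of 668 oogenesis-like cells had barcodes ending in 2.

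CYP26A1 stood highest in premeiotic-like cells. It was at 34.7 CPM (28.8 to 41.4) in mitotic-like, 178 CPM (171 to 185, 2446 UMIs) in premeiotic-like, 29.6 CPM (26.3 to 33.1) in meiotic-like and 3.63 CPM (2.59 to 4.94) in oogenesis-like cells. The mitotic-like and meiotic-like intervals overlap, and the premeiotic-like level lay far above both. Premeiotic-like cells, with 9.24% of all UMIs, held 58.4% of those of CYP26A1. Their barcode sets gave 161 and 210.3 CPM, and their 4 sub-clusters 117, 121, 214 and 224 CPM.

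In thinned cells a CYP26A1 transcript was found in 13.2% of premeiotic-like cells (11.5 to 15.1), 3.96% of mitotic-like cells (1.99 to 6.97) and 0.307% of erythroid-like cells. Unthinned, these 3 groups had median depths of 5816, 11332 and 4072 UMIs and shares of 49.6%, 25.1% and 0.943%. Up to 27 UMIs of CYP26A1 were counted in 1 premeiotic-like cell. The unnamed germ cell-like cells held 71.5 CPM.

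**Figure D4:**
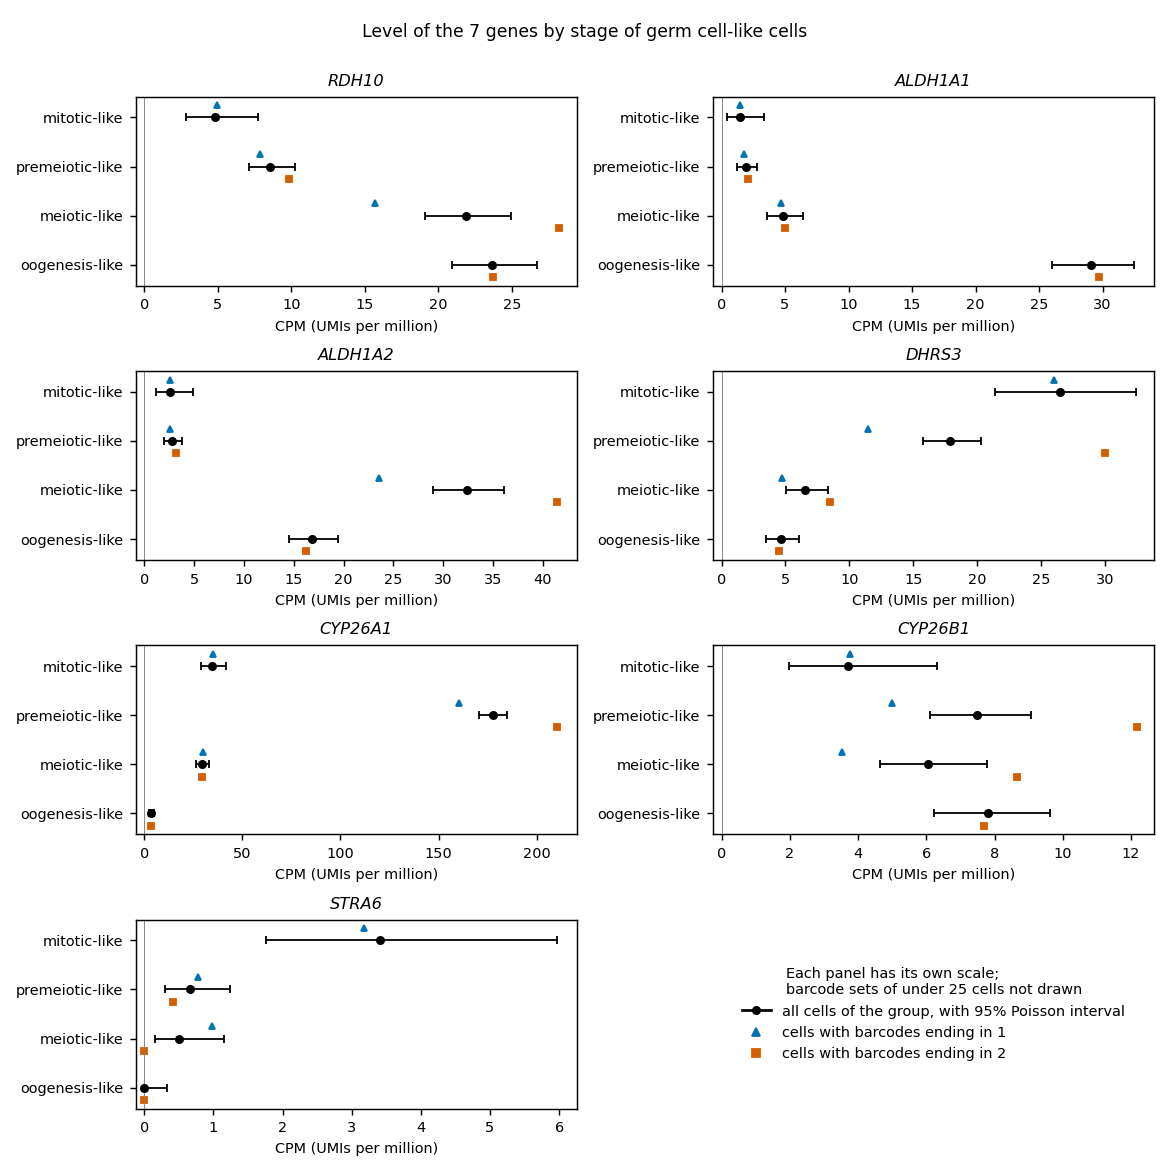
Level of the 7 genes (x axis, CPM, a separate scale per gene) in 4 groups of germ cell-like cells (y axis). Black points with bars are all cells of a group with the 95% Poisson interval, and triangles and squares are the barcode sets ending in 1 and in 2. CYP26A1 stood at 178 CPM in premeiotic-like cells, ALDH1A2 at 32.4 CPM in meiotic-like cells and ALDH1A1 at 29.1 CPM in oogenesis-like cells.

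The synthesis genes had their higher levels in the later groups of germ cell-like cells. Mitotic-like and oogenesis-like cells came almost wholly from opposite barcode sets, so stage and barcode set cannot be told apart for that pair. ALDH1A2 stood at 2.56 CPM (1.17 to 4.86) in mitotic-like and 2.76 CPM (1.96 to 3.79) in premeiotic-like cells, which is within the interval of erythroid-like cells, and at 32.4 CPM (29.0 to 36.1, 326 UMIs) in meiotic-like and 16.9 CPM (14.5 to 19.5) in oogenesis-like cells. Meiotic-like cells of the barcode sets held 23.5 and 41.4 CPM. RDH10 stood at 4.84, 8.58, 21.8 and 23.7 CPM in the 4 groups, and the last pair have overlapping intervals. ALDH1A1 was at or below 4.87 CPM in the first 3 groups and at 29.1 CPM (26.0 to 32.5, 321 UMIs) in oogenesis-like cells. All of the ALDH1A1 UMIs of oogenesis-like cells had barcodes ending in 2, and 20 of the 668 cells had barcodes ending in 1.

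Granulosa markers were summed in the same groups beside ALDH1A2. The 12 granulosa markers summed to 48.4 CPM in mitotic-like, 97.4 in premeiotic-like, 110.4 in meiotic-like and 45.4 in oogenesis-like cells, with 1, 2, 1 and 1 of them at 10 CPM or more, and FST was the marker at that level in meiotic-like cells. FOXL2, INHA and FSHR were at 0 in mitotic-like cells and none was at 0 in the other 3 groups. In a meiotic-like sub-cluster of 426 cells with a median of 13721.5 UMIs, ALDH1A2 stood at 39.8 CPM (35.0 to 45.1), RDH10 at 25.2 CPM and CYP26A1 at 21.9 CPM. In the unnamed germ cell-like cells, where granulosa markers summed to 562 CPM and 8 of 12 were at 10 CPM or more, ALDH1A2 stood at 55.985 CPM and RDH10 at 46.2 CPM. The part of granulosa RNA in those 2 values was not tested.

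DHRS3 stood at 26.5 CPM (21.4 to 32.4) in mitotic-like, 17.9 CPM (15.7 to 20.3) in premeiotic-like, 6.55 CPM in meiotic-like and 4.63 CPM in oogenesis-like cells. Premeiotic-like cells of the barcode sets held 11.5 and 30.0 CPM of DHRS3, a wider gap than that between the mitotic-like and premeiotic-like groups. CYP26B1 stayed between 3.70 and 7.80 CPM in the 4 groups. STRA6 had 12 UMIs in mitotic-like cells, 9 in premeiotic-like and 5 in meiotic-like cells, and none in oogenesis-like cells, where 3 counts would correspond to 0.272 CPM.

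Premeiotic-like cells were compared with mitotic-like cells under the same call rule. CYP26A1 was called higher, with a log2 ratio of 2.07, as were 9.99% of 8637 genes, and none of the members was called lower, as were 5.68% of all genes. DHRS3, the other of the 2 members assessed, had a log2 ratio of -0.39, and of -0.75 within barcodes ending in 1, where the groups held 11.5 and 26.0 CPM. The remaining 5 members were under 10 CPM in both groups. The median over the 2 members assessed was 0.84, beside 0.23 over all genes assessed. Within barcodes ending in 1 the log2 ratio of CYP26A1 was 1.91. The set ending in 2 held 5 mitotic-like cells, too few for a comparison.

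Few cells held both synthesis and breakdown transcripts at the low depth of thinned cells. After thinning to 1000 UMIs, 17943 cells remained. Of these 15.3% held RDH10, ALDH1A1 or ALDH1A2, 2.70% held CYP26A1 or CYP26B1, and 35 cells, or 0.195% (0.136 to 0.271), held both kinds, where the product of the 2 shares is 0.415%. The product over all cells mixes classes whose shares differ. Within germ cell-like cells the share with both kinds was 0.236% (0.118 to 0.422) against a product of 0.354%. Endothelial-like cells had 0.810% (0.221 to 2.06) against 0.779%. Granulosa-like cells had 0.220% against 0.176%, stroma-like cells 0.115% against 0.114% and surface epithelium-like cells 0.163% against 0.115%. In each of these classes the product lay within the interval. After thinning to 2000 UMIs germ cell-like cells had 0.808% (0.533 to 1.17) against 1.22%, where the product lay above the interval. Endothelial-like cells had 1.79% against 1.80%. Within each named stage of germ cell-like cells, and in the unnamed ones, the product at 2000 UMIs lay inside the interval. Premeiotic-like cells had 0.521% (0.191 to 1.13) against 0.701%, and meiotic-like cells 0.671% (0.270 to 1.38) against 0.589%. At the depth of 1000 UMIs, 2.09% of premeiotic-like cells held a synthesis transcript and 13.9% a breakdown transcript. In the CBLN2/LYPD1 cluster the shares were 41.6% and 0.249%. Endothelial-like cells stood between, with 7.69% and 10.1%. In erythroid-like cells the shares were 1.23% and 0.461%.

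**Figure D5:**
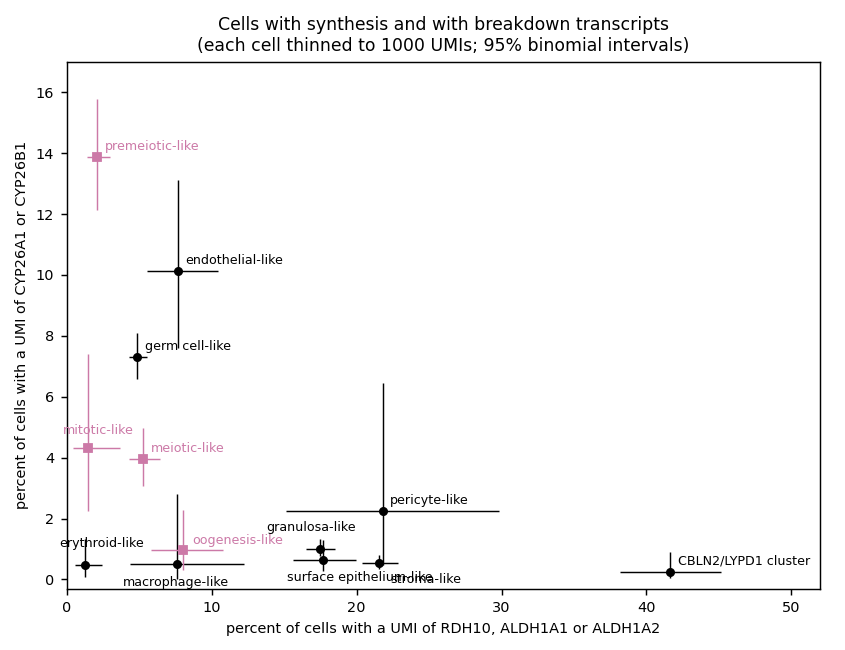
Share of cells with a synthesis transcript (x axis, percent with RDH10, ALDH1A1 or ALDH1A2) against the share with a breakdown transcript (y axis, percent with CYP26A1 or CYP26B1) after thinning each cell to 1000 UMIs, with 95% binomial intervals. Black circles are cell classes and pink squares are groups of germ cell-like cells. Premeiotic-like cells lay at 2.09% and 13.9%, and the CBLN2/LYPD1 cluster at 41.6% and 0.249%.

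Each member was also matched to the genes with the most similar profile over the 20 clusters, among 12610 named genes with at least 100 UMIs. For CYP26A1 these were METTL7B, FGFR3 and SERPINB7, each with a Pearson correlation of 0.95, and for CYP26B1 the endothelial genes THSD1, MYCT1 and AFAP1L1, also at 0.95. ALDH1A2 was most like SHROOM3 (0.95), CATSPER4 (0.93) and CLIC5 (0.92), and RDH10 most like TYRO3 (0.94), NTRK2 (0.90) and PRELP (0.89). ALDH1A1 was most like CMKLR1 (0.89), RAB3A (0.89) and IRF1 (0.88), and IRF1 was also the closest match of DHRS3 (0.92), followed by RASSF2 (0.91) and CSRNP1 (0.90). For STRA6, IGSF1 (0.88) and TUBB3 (0.87) were among the closest. These genes were picked as the highest of many, so the values describe the clusters and carry no test.

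Genes that bind retinoids or answer to retinoic acid gave the rest of the pathway, as a list of 39 of which 35 were in the table. In germ cell-like against somatic cells, 6 of 18 assessed were called higher (RBP4, CRABP1, FABP5, RDH13, STRA8 and REC8) and 2 lower, CYP1B1 among them, beside 14.4% and 11.7% of all genes. STRA8 and REC8 were among the markers that named a germ cell-like cluster, so those 2 calls were fixed by the naming. By barcode ending (1, then 2), the log2 ratios were 2.35 and 2.37 for FABP5 and 2.35 and 0.36 for CRABP1. They were 0.50 and 1.78 for RBP4 and 0.76 and 1.24 for RDH13. CRABP1, RBP4 and RDH13 were thus each under 2-fold in a barcode set. Between granulosa-like and stroma-like cells, none of 14 assessed was called higher and 3 were called lower (CRABP2, CYP1B1 and RARB), beside 5.70% and 5.29% of all genes. In premeiotic-like against mitotic-like cells, 6 of 18 were called higher (RBP4, CRABP2, RARB, STRA8 and REC8 among them) and 1 lower (CRABP1), beside 9.99% and 5.68% of all genes, where STRA8 and REC8 named the group. With barcodes ending in 1 alone, RBP4 was under 2-fold at a log2 ratio of 0.40. CRABP2 stood at 1.75 there, RARB at 1.34 and CRABP1 at -3.43.

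The binding proteins of retinoic acid parted by cell group. CRABP1 stood at 264 CPM in mitotic-like and 11.1 CPM in premeiotic-like cells, and the pericyte-like cells, at 18.6 CPM on 14 UMIs of which 13 came from 1 cell, were the highest somatic class. CRABP2 stood at 56.4 CPM in stroma-like cells, at 39.8 CPM in premeiotic-like cells and at 1.99 CPM in mitotic-like cells. The receptor RARB, itself known as a retinoic acid target, stood at 74.4 CPM in premeiotic-like and 15.1 CPM in mitotic-like cells, at 30.3 CPM in stroma-like and at 2.74 CPM in granulosa-like cells. RARA and RARG stood at 31.5 and 13.5 CPM in premeiotic-like cells. For retinol, the carriers RBP5 and RBP7 stood at 78.2 and 35.3 CPM in endothelial-like cells, the class that carried CYP26B1. RBP4, which STRA6 binds outside the cell, stood at 33.2 CPM in meiotic-like cells and at most at 1.99 CPM in the somatic classes.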

How the data were processed

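The authors aligned the reads to genome build Macaca_fascicularis_5.0 and counted UMIs with Cell Ranger 3.0.2, as the study's methods and the submitters' processing notes say, and deposited raw UMI counts of 18446 genes in 20967 cells as 1 table. The authors' limits of 200 to 3000 detected genes left 16292 cells of that table, more than the study analysed; all cells were kept here, and 4675 of them had more than 3000 genes. Counts were not normalised before deposit. Cells were clustered in Seurat 5.3.0 (R 4.3.3; 2000 variable genes without the retinoid genes, 18 principal components, 20 neighbours, resolution 0.6), with a second round at 0.6 within germ cell-like cells. A cluster was named where at least 3 markers of 1 list were 1.5-fold over all other cells and in 5% of its cells, unless another class tied or led. Germ cell stage lists were counted as germ cell markers, a choice made after a NANOG-positive cluster had stayed unnamed. Scrublet (scanpy 1.11.5) called 0 doublets in either barcode set, so it had not worked and no cell was removed; an alternative removed the 8% with the highest scores, 1678 cells.

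Levels are sums of UMIs per group, with the total of the group as depth; sums run from 751138 UMIs in pericyte-like cells to 51027946 in germ cell-like cells. Cells with fewer UMIs than the thinning depth of 1000 were left out of shares. Intervals, ratios, thinning and profile matching were tested on simulated data. The members and all gene lists were chosen with earlier results of these data known. Named genes were the 7 members, pathway genes called or at 20 CPM or more in a named class, and the 3 best profile matches of each member. Some genes that met this rule are not reported here. Sequences and coordinates are not given here, since the annotation at hand is of another build than the files. Alternatives changed the cells used, resolution (0.4 and 1.0), components (30), variable genes, integration, barcode set, scaling, added CPM (1) and minimum level.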

Additional observations from a re-analysis of the deposited data

How the results depend on the processing

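Each comparison was recomputed under 18 other settings: cells with 200 to 3000 detected genes, at most 10% mitochondrial UMIs, no high Scrublet scores, resolution 0.4 or 1.0, 30 components, the retinoid genes kept among the variable genes, reciprocal PCA integration, either barcode set alone, median-of-ratios size factors, the mean of the CPM of single cells, 1 CPM added, no minimum level, and 4 settings chosen after the data were seen. The last were the CBLN2/LYPD1 cluster counted as granulosa, germ cells without the unnamed sub-clusters, granulosa without the mitochondrial cluster, and the same clusters with cells of at most 3000 genes. A member was called where its ratio was past 2-fold with at least 10 CPM on either side. The 9 called ratios kept their direction and their call in all 162 recomputed values, of which 147 differed from the value as reported. The settings with 1 CPM added and with no minimum level could not undo a call. The CYP26A1 ratio of premeiotic-like over mitotic-like cells with barcodes ending in 2 rested on 5 mitotic-like cells. Of the 12 ratios not called, 2 became called, both between premeiotic-like and mitotic-like cells with barcodes ending in 2, where 5 mitotic-like cells remained: CYP26B1 at a log2 ratio of 1.15 and STRA6 at -1.40. The number of members called there was 2 higher and 1 lower, in place of 1 and 0. With 1 CPM added, the ratios of STRA6 were -1.76 in germ cell-like over somatic and -1.42 in premeiotic-like over mitotic-like cells, past 2-fold but under the 10 CPM minimum. The other counts of members called were the same in every setting.

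The named class with the highest level changed in 12 of 112 recomputed values, over the 16 settings that can move a level. RDH10 was higher in granulosa-like than in stroma-like cells in 6 settings, for example at 179 against 128 CPM with the CBLN2/LYPD1 cluster counted as granulosa and at 155 against 126 CPM with 200 to 3000 genes per cell. Clusters of cells with at most 10% mitochondrial UMIs and resolution 0.4 gave no separate CBLN2/LYPD1 cluster, and integration gave no pericyte-like cluster, so those values are missing. STRA6 was highest in endothelial-like cells in 3 settings, at 11.998 to 13.3 CPM. ALDH1A1 was highest in stroma-like cells with integration and with barcodes ending in 1, and DHRS3 in macrophage-like cells with barcodes ending in 1, on 13 UMIs. The median log2 ratio of all genes between germ cell-like and somatic cells was 0.10, and -0.01 with size factors. No paired test was run, since the groups compared are cell groups of 1 pooled sample, with no replicate. Ratios within each barcode set are given as descriptions. Depth limits STRA6 and CYP26B1 most, with 766 and 1188 UMIs in all cells.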

Other observations

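RDH5, a retinol dehydrogenase best known from the eye, stood between 148 and 221 CPM in the germ cell-like and the 6 somatic classes, and at 410.5 CPM in oogenesis-like cells. ADH5 stood between 73.5 and 228 CPM, RDH14 between 22.1 and 47.5 CPM and the receptor RXRB between 22.0 and 48.0 CPM in the same classes. CYP1B1, a cytochrome that can oxidise retinol, was uneven, with 242 CPM in stroma-like, 151 in endothelial-like, 145 in surface epithelium-like and 21.3 in germ cell-like cells. FABP5, a fatty acid carrier that can hold retinoic acid, stood at 848 CPM in macrophage-like and 535 CPM in germ cell-like cells and at most at 124 CPM elsewhere. RARA stood at 46.0 CPM in macrophage-like, 45.5 in endothelial-like and 44.8 in stroma-like cells, and RXRG reached 24.0 CPM in pericyte-like cells.

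ALDH1A3, which shares its reaction with ALDH1A1 and ALDH1A2, was at most 24.0 CPM, in pericyte-like cells, and stood at 16.4 CPM in endothelial-like and 13.5 CPM in surface epithelium-like cells. CYP26C1, the remaining gene of the CYP26 family, was at or below 1.33 CPM in every class and at 2.11 CPM in premeiotic-like cells. LRAT, which stores retinol as esters, was at or below 1.67 CPM in every class, and stood at 3.70 CPM on 13 UMIs in mitotic-like and at 3.08 CPM in meiotic-like cells.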
